A study of Mus musculus with 6 samples.

Results

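Elastic fibre and crosslinking genes were represented by 10 genes chosen by symbol: Eln, Fbn1, Fbn2, Mfap5, Fbln1, Fbln2, Fbln5, Lox, Loxl1 and Loxl2. All 10 were among the 22349 genes named on the arrays, and all 10 lay above the filter on low values that left 16762 genes for testing. The cells were mesenchymal stem cells, adherent stromal cells that had been taken from mouse marrow and kept in a commercial stem cell medium. Dense cultures were seeded with 2500000 cells and sparse cultures with 15000 cells, and RNA was collected on days 1, 2 and 3 after seeding. The study holds 6 Affymetrix arrays, 3 for each density and 1 for each culture. The labels describe the cultures as grown independently, but all 6 sample titles carry the same cell identifier, whose meaning is not given. They give no mouse strain, age, sex or genetic change and do not say whether the days came from separate isolations. No density was repeated on a day, and p-values rest on the spread of the daily values. The design asks how expression in dense and sparse cultures compared over the 3 days.

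Elastic fibres consist of a core of crosslinked elastin laid down on a scaffold of fibrillin microfibrils. Fibulins link elastin to the microfibrils, and secreted copper enzymes of the lysyl oxidase family oxidise lysines in elastin and collagen so that the chains become covalently joined. Fibrillin microfibrils also bind latent TGF-beta complexes and BMPs, and in cultured mesenchymal cells they can be laid down where little elastin is made.

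The values are log2 expression values per probe set as deposited by the authors, so that a difference of 1 is a 2-fold difference. Array medians over all 35556 probe sets ran from 4.33 to 4.45. Values of different genes come from different probe sets and were not set against each other. In these bulk samples fewer cells of a type and less RNA per cell cannot be told apart. Of 15 stromal markers, 9 were higher and 1 lower in dense cultures (limma, adjusted p under 0.05), and their summed log2 level was 135.4 to 139.1 on dense arrays and 124.0 to 124.4 on sparse arrays. By the same test 8.26% of all tested genes were higher and 2.9% lower. Named after their values were seen, the platelet-derived growth factor receptor Pdgfra was 1.81 higher on the log2 scale and Col1a1 1.66 higher, while the hyaluronan receptor Cd44 was 1.09 lower. The stromal marker Eng lay near the array medians, at 4.11 to 4.38 in dense and 4.30 to 4.52 in sparse cultures. Leukocyte, endothelial, smooth muscle and chondrocyte markers had 0 of 6, 0 of 7, 0 of 10 and 0 of 8 tested members past limma's test of density (0, 1, 1 and 2 at an unadjusted p under 0.05). Over all 16762 tested genes 5748 had an unadjusted p under 0.05 in that test. The leukocyte antigen Ptprc had 2.95 to 3.21 in dense and 3.16 to 3.33 in sparse cultures. Summed leukocyte levels were 45.6 to 46.1 on dense and 46.1 to 46.8 on sparse arrays, endothelial 33.7 to 35.8 and 35.3 to 36.9, smooth muscle 68.0 to 71.1 and 66.5 to 71.1, and chondrocyte 42.5 to 43.4 and 44.3 to 46.0. No marker is at 0 on this scale, and 11 of 13 measured leukocyte markers and 10 of 10 endothelial markers had means below the array medians. The same held for 6 of 10 chondrocyte, 3 of 10 smooth muscle and 1 of 15 stromal markers. The part of the stromal markers' shift in the results below was not tested.

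**Figure D1:**
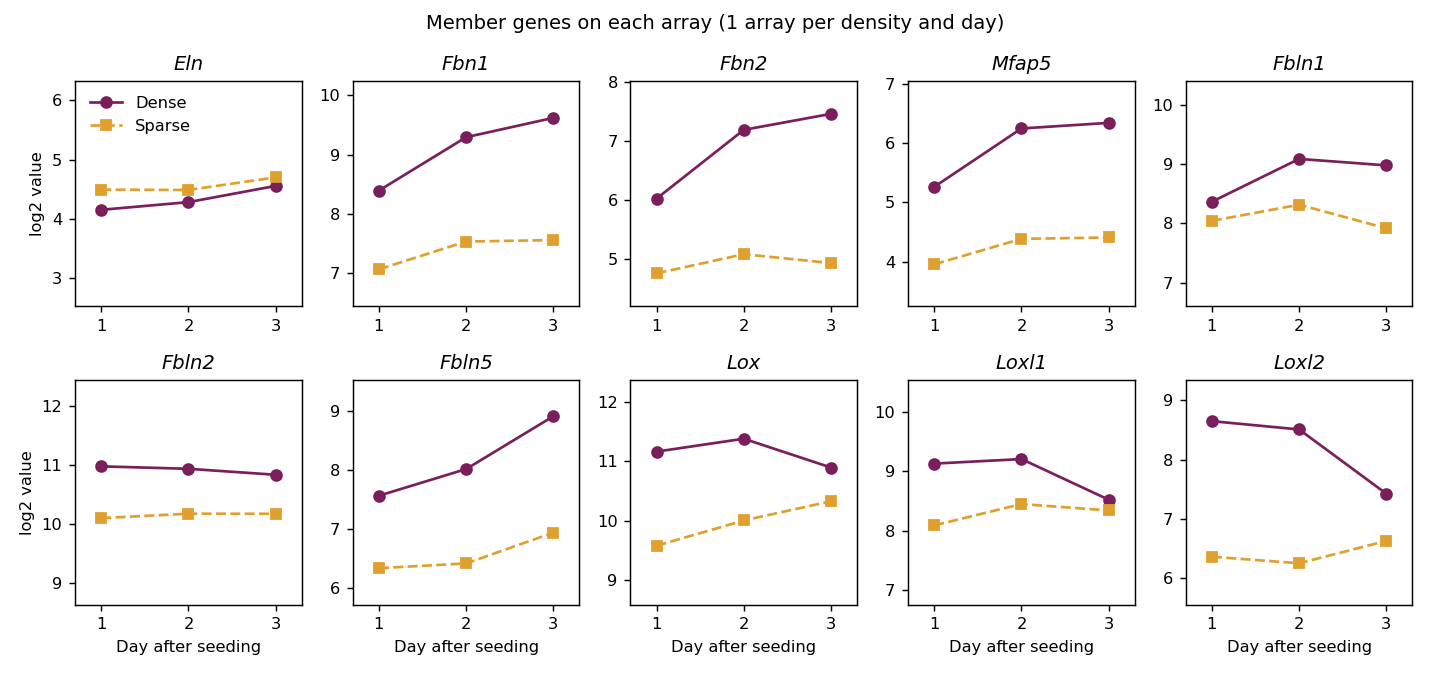
Log2 value of each member (vertical axis, 1 probe set per gene, the same span in every panel but different levels) by day after seeding, with 1 array per point, dense in purple and sparse in yellow. The dense line lies above the sparse line on every day in 9 panels, and below it for Eln, whose dense values were 4.15 to 4.56.

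Most of these genes were higher in dense cultures. When density was fitted with limma beside a term for each day, 7 of 10 members were higher at an adjusted p under 0.05, 0 were lower and 3 did not pass (Fbln1, Loxl1 and Eln). Among all tested genes 8.26% were higher and 2.9% lower by the same rule. The median difference was 1.39 over the members and −0.05 over all tested genes. In 9 of 10 members all 3 dense arrays lay above all 3 sparse arrays, as they did for 20.9% of tested genes, and in 0 members all lay below, as for 19% of tested genes. In either direction 11.2% of tested genes passed the density test. The calls rest on the day 2 arrays: without them limma called 0 members and 0 genes (2531 genes at an unadjusted p under 0.05), with member estimates from −0.24 for Eln to 1.89 for Fbn2.

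Elastin itself did not follow the rest. Eln (probe set 10534343), the gene of the elastic core protein, had 4.15, 4.28 and 4.56 in dense cultures on days 1, 2 and 3, against 4.49, 4.49 and 4.70 in sparse cultures. Each dense value lay below the sparse value of its day, but the densities overlapped, since dense day 3 exceeded sparse days 1 and 2. The difference was −0.23 ± 0.12 (SE, 3 arrays per density) with a 95% interval from −0.52 to 0.06 and did not pass (limma, adjusted p = 0.218). The values sat at the level of the array medians, where RMA values compress differences. Among 1447 other tested genes with a mean within 0.25 of that of Eln, the medians were 4.30, 4.35 and 4.45 on the dense arrays and 4.44, 4.47 and 4.51 on the sparse arrays. Their median difference was −0.16, and 45.3% of them were lower in dense on all 3 days, as Eln was. The part of this shift of dim genes in the Eln values was not tested. The 3 genes most like Eln over the 6 arrays by Pearson correlation were Ttbk1 (r = 0.9996), 2310033E01Rik (0.995) and Mrgprg (0.994). All 3 were dim as well, with 2.87 to 4.55 in dense and 3.40 to 4.72 in sparse cultures, and 483 tested genes had an r above 0.9. These 6 points share their arrays and densities, and the correlation is a description.

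The microfibril genes were the most uniform group: all 3 were higher in dense cultures. Fbn1 (probe set 10487040), which encodes fibrillin-1, the main subunit of microfibrils, had 8.39, 9.29 and 9.62 in dense cultures on days 1 to 3, against 7.06, 7.53 and 7.56 in sparse cultures. Every dense value lay above every sparse value. The difference was 1.72 ± 0.17, a 3.29-fold difference (adjusted p = 0.00869). A further probe set of Fbn1 (10475623) was dim, with 3.34 to 4.002 in dense and 3.52 to 3.86 in sparse cultures, and had a difference of −0.08 ± 0.14 (adjusted p = 0.726 over all probe sets). With the mean of both probe sets Fbn1 had a difference of 0.82 (adjusted p = 0.0326).

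Fbn2 (probe set 10458999), which encodes fibrillin-2, a subunit made mainly during development and repair, had 6.03, 7.19 and 7.46 in dense cultures, against 4.76, 5.09 and 4.94 in sparse cultures. The lowest dense value, on day 1, was still above the highest sparse value. Its difference of 1.96 ± 0.25 (3.89-fold, adjusted p = 0.0138) was the largest estimate among the 10 members with all arrays. Without the day 3 arrays Fbn2 had 1.68 and Loxl2 2.27. Mfap5 (probe set 10541496), the gene of a small microfibril-associated glycoprotein that binds fibrillins, had 5.26, 6.25 and 6.34 in dense cultures, against 3.95, 4.38 and 4.41 in sparse cultures. Its sparse values lay at or below the array medians, so that the size of its difference of 1.70 ± 0.16 (3.25-fold, adjusted p = 0.00822) is uncertain. Without the day 2 arrays the adjusted p-values of these genes were 0.135 for Fbn1, 0.166 for Fbn2 and 0.132 for Mfap5, with estimates of 1.70, 1.89 and 1.62.

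Of the fibulins, Fbln2 and Fbln5 were higher in dense cultures and Fbln1 narrowly missed the threshold. Fbln5 (probe set 10402211), whose product binds elastin, lysyl oxidase-like 1 and cell surface integrins and is required for elastic fibre assembly in mice, had 7.56, 8.01 and 8.91 in dense cultures, against 6.34, 6.42 and 6.94 in sparse cultures. The groups did not overlap, and both were highest on day 3. The difference was 1.59 ± 0.17 (3.02-fold, adjusted p = 0.0101).

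Fbln2 (probe set 10540085), which encodes fibulin-2, a partner of fibrillin-1 and of basement membrane proteins, had 10.98, 10.94 and 10.84 in dense cultures, against 10.10, 10.18 and 10.18 in sparse cultures. These values varied little within each density, with SDs of 0.07 in dense and 0.04 in sparse (n = 3 each). Its difference of 0.76 ± 0.12 (1.70-fold) had an adjusted p of 0.0213. Fbln1 (probe set 10425945), which encodes fibulin-1, a plasma and matrix protein that associates with elastic fibres and fibronectin, had 8.37, 9.09 and 8.98 in dense cultures, against 8.04, 8.32 and 7.92 in sparse cultures. Dense day 1 exceeded sparse day 2 by little, and the difference of 0.72 ± 0.17 did not pass (adjusted p = 0.0521, 95% interval 0.30 to 1.14). Without the day 1 arrays Fbln1 had 0.92 and passed (adjusted p = 0.0300). Without the day 2 arrays the adjusted p was 0.146 for Fbln5 and 0.220 for Fbln2.

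The sequence before the start of Fbn1 and Fbln5, which were both higher in dense cultures, is shown with that of Fbln1, which missed the threshold. Only these 3 of 10 members had a usable window. On the chromosomes searched 4 members had a promoter entry, and that of Fbln2 lay inside its annotated gene. The sequences shown are RefSeq promoter windows of build GRCm38.p6, on the gene's strand, cut at the outermost annotated end of the gene. Capitals mark matches, on either strand, to the letters searched: CATTCC (TEAD factors), ACGTG and GCGTG (the core of hypoxia response elements), CAGAC (SMAD factors) and GGGCGG (SP1). The palindrome CACGTG counts as 2 overlapping ACGTG matches.
Fbn1, chr2:125506486-125506688, minus strand: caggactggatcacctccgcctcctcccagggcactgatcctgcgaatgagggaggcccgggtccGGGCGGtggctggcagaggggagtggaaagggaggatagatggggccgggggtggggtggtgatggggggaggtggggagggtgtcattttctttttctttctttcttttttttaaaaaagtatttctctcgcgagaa
Fbln5, chr12:101819120-101819369, minus strand: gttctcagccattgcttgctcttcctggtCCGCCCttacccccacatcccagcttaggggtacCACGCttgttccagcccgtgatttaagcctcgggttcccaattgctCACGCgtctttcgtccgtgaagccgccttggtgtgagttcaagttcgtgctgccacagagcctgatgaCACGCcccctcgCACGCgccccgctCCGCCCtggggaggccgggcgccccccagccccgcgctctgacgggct
Fbln1, chr15:85205699-85205948, plus strand: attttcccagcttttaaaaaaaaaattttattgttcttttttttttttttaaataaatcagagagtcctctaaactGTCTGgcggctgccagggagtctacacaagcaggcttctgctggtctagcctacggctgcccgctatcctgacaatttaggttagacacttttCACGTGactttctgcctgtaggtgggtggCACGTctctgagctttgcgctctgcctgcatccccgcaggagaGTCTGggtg

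The 203 bases of Fbn1 held 1 GGGCGG and none of the other letters. GGGCGG occurred in 25.2% of 27025 promoters over the same length, taking 1 promoter per gene on the chromosomes searched. Unlike the windows shown, these promoters were not cut at the annotated end of the gene, and those lying inside a gene were kept. The 250 bases of Fbln5 held 4 GCGTG, found in 28.3% of promoters over that length, and 2 GGGCGG, found in 33.0%. The 250 bases of Fbln1 held 3 ACGTG (16.5% of promoters) and 2 CAGAC (42.2%). CATTCC was in none of the 3 windows and in 12.6% of promoters over 250 bases and 10.8% over 203 bases. GC content was 57.6% for Fbn1, 65.2% for Fbln5 and 46.4% for Fbln1, against medians over all promoters of 51.2% for 203 bases and 52.0% for 250 bases. These matches describe letters in a window and not sites that were bound.

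**Figure D2:**
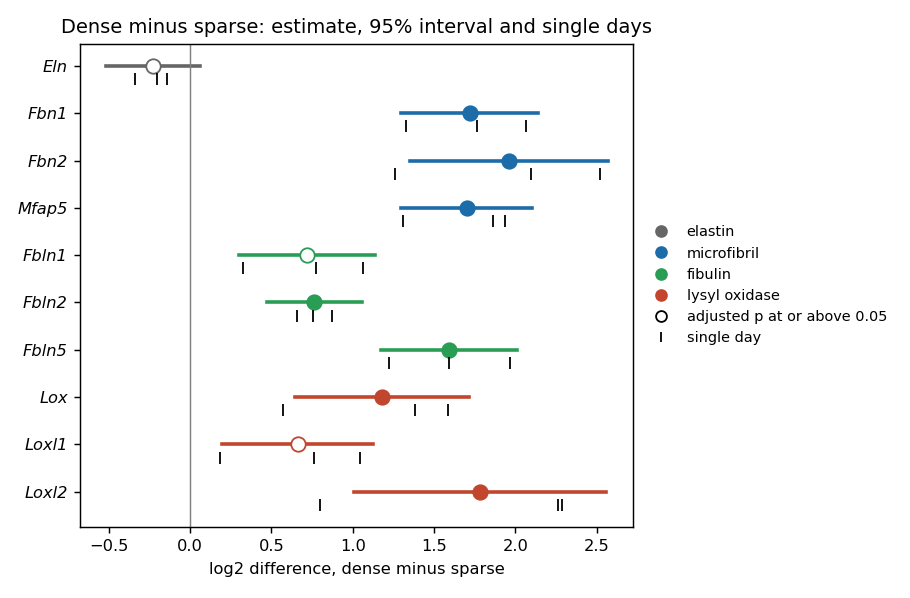
Log2 difference of dense minus sparse for each member (horizontal axis), with the limma estimate (circle), its 95% interval (line) and the 3 single-day differences (ticks). Filled circles passed at an adjusted p under 0.05, and Eln, Fbln1 and Loxl1 are open, with estimates of −0.23, 0.72 and 0.66.

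Among the lysyl oxidases, Lox and Loxl2 were higher in dense cultures and Loxl1 did not pass. Lox (probe set 10458894), the founding member of the family, which oxidises lysines of both collagen and elastin, had 11.16, 11.38 and 10.89 in dense cultures on days 1 to 3, against 9.57, 10.001 and 10.33 in sparse cultures. The groups did not overlap, but dense day 3 and sparse day 3 were close. Its difference was 1.18 ± 0.22 (2.26-fold, adjusted p = 0.0305). Its estimate was 0.97 without the day 1 arrays (adjusted p = 0.0588) and 1.08 without those of day 2 (adjusted p = 0.251), past the threshold in neither case.

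Loxl2 (probe set 10416215), which acts mainly on collagen, basement membrane collagen IV included, had 8.65, 8.51 and 7.42 in dense cultures, against 6.36, 6.25 and 6.63 in sparse cultures. The dense value of day 3 stood well below those of days 1 and 2. The difference was 1.78 ± 0.31 (3.44-fold, adjusted p = 0.0281). It was 1.53 without the day 1 arrays (adjusted p = 0.0559) and 1.54 without the day 2 arrays (adjusted p = 0.232). A further Loxl2 probe set (10421184) went the other way, with 4.69, 4.81 and 5.14 in dense and 5.17, 5.38 and 5.13 in sparse cultures. Its difference was −0.34 ± 0.15 and did not pass (adjusted p = 0.185 over all probe sets). With the mean of both probe sets Loxl2 had 0.72 (adjusted p = 0.0380).

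Loxl1 (probe set 10594066), whose product is the family member most closely tied to elastin and which is tethered to elastic fibres by fibulin-5, had 9.13, 9.21 and 8.52 in dense cultures, against 8.09, 8.45 and 8.34 in sparse cultures. On day 3 the densities were nearly at the same value. The difference of 0.66 ± 0.19 did not pass (adjusted p = 0.0738, 95% interval 0.20 to 1.13). Without the day 3 arrays Loxl1 had 0.90 and passed (adjusted p = 0.0101). The 3 genes most like Lox over the 6 arrays were Akap2 (r = 0.997), Ugp2 (0.997) and Hoxa9 (0.997), and 931 tested genes had an r above 0.9, on arrays that differ by density.

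The daily density differences are given next by gene group. The grouping was made after the values were seen, and in the test of a change over the days, given below, 0 of 10 members passed. On day 1 Loxl2, Lox and Loxl1 were 4.88-fold, 3.01-fold and 2.06-fold higher in dense cultures. On day 3 they were 1.74-fold, 1.48-fold and 1.13-fold higher. Fbn2 was 2.40-fold higher on day 1 and 5.73-fold on day 3, Fbn1 2.51-fold and 4.18-fold, Mfap5 2.48-fold and 3.82-fold, and Fbln5 2.33-fold and 3.90-fold. Fbln1 was 1.25-fold higher on day 1 and 2.09-fold on day 3, and Fbln2 1.83-fold and 1.58-fold. The log2 difference increased from each day to the next for 6 members (Fbn1, Fbn2, Mfap5, Fbln1, Fbln5 and Eln, the last from below 0) and decreased for 4 (Lox, Loxl1, Loxl2 and Fbln2). With quantile normalization repeated, Loxl2 had 2.15 on day 1 and 2.16 on day 2, which leaves 3 that decreased. Among all tested genes 25.4% increased and 20.1% decreased in this way. With dense also above sparse on every day, 5 members increased and 4 decreased, against 7.99% and 4.03% of tested genes.

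Taken day by day, which allows no test, 7 members were at least 2-fold higher in dense on day 1, 6 on day 2 and 5 on day 3. The shares of all tested genes were 3.29%, 5.89% and 6.4%. On day 3 the 5 were Fbn1, Fbn2, Mfap5, Fbln5 and Fbln1, and on day 1 they included all 3 lysyl oxidases. Members near the limit depend on the scaling. Loxl1 on day 1 was at 0.97 with quantile normalization repeated and 0.94 with centring on the 75th percentile, which gives 6 members on day 1. Fbln1 on day 3 was at 0.91 with that centring, which gives 4 on day 3. With the mean of probe sets the counts were 5, 4 and 5. No member was 2-fold lower in dense on any day, against 1.08%, 1.29% and 2.94% of tested genes.

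**Figure D3:**
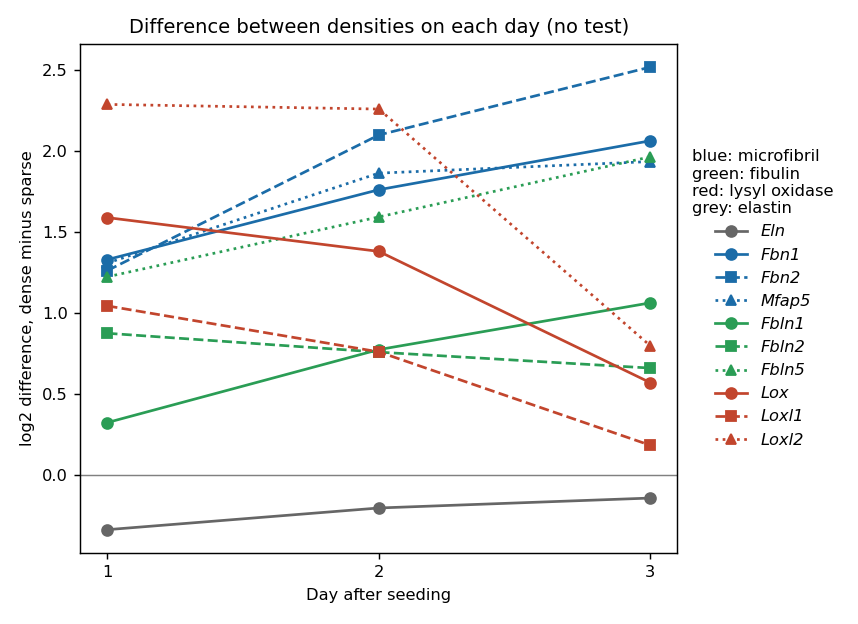
Log2 difference of dense minus sparse (vertical axis) on each day after seeding, 1 line per member, coloured by role, without a test. On day 3 the points of the lysyl oxidases (red) lie between 0.18 and 0.80 and those of the microfibril genes (blue) between 1.93 and 2.52.

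A change of the density difference over the days was tested as the difference of slopes between densities, and 0 of 10 members passed it (limma, 4 at an unadjusted p under 0.05, and also 0 with a mean-variance trend). An unadjusted p under 0.05 was found for 2713 of all 16762 tested genes. Of all tested genes 0.191% passed, 0.0776% with a positive and 0.113% with a negative difference. The slope difference, dense minus sparse, was −0.75 ± 0.20 per day for Loxl2 (adjusted p = 0.143, 95% interval −1.22 to −0.27), −0.51 ± 0.16 for Lox (adjusted p = 0.195) and −0.43 ± 0.18 for Loxl1 (adjusted p = 0.309). On the other side it was 0.63 ± 0.20 for Fbn2 (adjusted p = 0.186), 0.37 ± 0.16 for Fbln5 (adjusted p = 0.301), 0.37 ± 0.17 for Fbn1 (adjusted p = 0.335) and 0.37 ± 0.20 for Fbln1 (adjusted p = 0.430). Mfap5 had 0.31 ± 0.19 (adjusted p = 0.481), Eln 0.10 ± 0.13 (adjusted p = 0.769) and Fbln2 −0.11 ± 0.12 (adjusted p = 0.731). With the mean of both probe sets the slope difference was −0.25 ± 0.13 for Loxl2 (adjusted p = 0.415) and 0.31 ± 0.12 for Fbn1 (adjusted p = 0.279). Some of these calls changed when 1 dense array was left out, and the residual spread then came from the sparse arrays alone. Without dense day 1, Loxl2 (−1.22, adjusted p = 0.00168), Lox (−0.86, adjusted p = 0.0164) and Loxl1 (−0.81, adjusted p = 0.0320) passed. Loxl2 (−0.75, adjusted p = 0.00171), Lox (−0.51, adjusted p = 0.0200) and Fbn2 (0.63, adjusted p = 0.00679) passed without dense day 2, and Fbn2 (1.07, adjusted p = 0.0119) without dense day 3. Such fits keep 1 residual degree of freedom. Without dense day 2 the estimates were those of all arrays, and only the estimate of their spread had changed. Without dense day 1, 546 of all tested genes passed with a positive and 690 with a negative slope difference. The counts were 915 and 825 without dense day 2, 311 and 127 without dense day 3, and 13 and 19 with all arrays. When any 1 sparse array was left out instead, 0 members and 0 of all tested genes passed. The lowest adjusted p (limma) was then 0.957, 0.0924 and 0.0870 without sparse days 1, 2 and 3.

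The smooth muscle markers are set beside the lysyl oxidases. Of the 10, 5 had a density difference that decreased from each day to the next (Cnn1, Actg2, Tagln, Acta2 and Myh11) and 0 had one that increased. Among all tested genes 20.1% decreased and 25.4% increased in this way. Cnn1, the contractile protein calponin, had 9.85, 9.62 and 9.01 in dense cultures, against 8.02, 8.84 and 9.40 in sparse cultures. Its slope difference of −1.11 ± 0.14 passed (adjusted p = 0.0483). That call was lost when any 1 sparse array was left out, since 0 of all tested genes passed then. The density difference of Cnn1 was 0.74 (adjusted p = 0.238, and 1.30 with 0.0103 without day 3). The slope difference was −0.90 for Actg2 (adjusted p = 0.0686), −0.70 for Tagln (adjusted p = 0.112) and −0.63 for Acta2 (adjusted p = 0.111), named after their values were seen, and did not pass. It was −0.19 for Rgs5, −0.18 for Myh11 and −0.15 for Lmod1. Smtn (0.55, limma, adjusted p = 0.283), Des (0.17) and Synpo2 (0.02) had positive slope differences, and none of these passed. The part of these markers in the lysyl oxidase values was not tested.

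Within dense cultures 3 of 10 members rose over the days and 0 fell, where 1.71% of tested genes rose and 2.64% fell (4.34% in all). Fbn2 rose by 0.72 ± 0.14 per day (adjusted p = 0.0364), Fbln5 by 0.67 ± 0.11 (adjusted p = 0.0224) and Fbn1 by 0.61 ± 0.12 (adjusted p = 0.0340). Mfap5 had 0.54 ± 0.14 (adjusted p = 0.0785), most of it between days 1 and 2. Loxl2 had −0.61 ± 0.14 per day and did not pass (adjusted p = 0.0631). Its dense value was 2.34-fold lower on day 3 than on day 1. With the mean of both probe sets the dense slope was −0.19 ± 0.09 for Loxl2 (adjusted p = 0.312) and 0.47 ± 0.09 for Fbn1 (adjusted p = 0.0304). Loxl1 had −0.30 ± 0.13 (adjusted p = 0.254), Lox −0.13 ± 0.12 (adjusted p = 0.578), Fbln1 0.31 ± 0.14 (adjusted p = 0.297), Fbln2 −0.07 ± 0.09 (adjusted p = 0.705) and Eln 0.20 ± 0.09 (adjusted p = 0.280).

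These calls depend on single arrays too. When any of the 3 sparse arrays was left out, limma called 0 members and 0 of all genes (2669 at an unadjusted p under 0.05), and the adjusted p-values were 0.116 for Fbn1, 0.129 for Fbn2 and 0.0929 for Fbln5. Without dense day 1, Fbn1 (0.33 per day, adjusted p = 0.457) and Fbn2 (0.27, adjusted p = 0.570) did not pass, while Loxl2 (−1.08, adjusted p = 0.00159) and Loxl1 (−0.69, adjusted p = 0.0447) did. Without dense day 2, Loxl2 (−0.61, adjusted p = 0.000248) and Mfap5 (0.54, adjusted p = 0.000728) passed as well. Without dense day 3, Fbln5 (0.45, adjusted p = 0.290) did not pass and Mfap5 (0.99, adjusted p = 0.00697) did. Over all tested genes 470 rose and 743 fell in dense cultures without dense day 1. The counts were 1132 and 1270 without dense day 2, 385 and 194 without dense day 3, and 286 and 442 with all arrays. Without dense day 2 the estimates of Loxl2 and Mfap5 were those of all arrays. When probe sets were tested singly Fbn2 had an adjusted p of 0.0512.

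In sparse cultures 0 of 10 members changed over the days (limma, 2 at an unadjusted p under 0.05, and also 0 with a mean-variance trend), while 0.0298% of all tested genes rose and 0.0477% fell (0.0776% in all). An unadjusted p under 0.05 was found for 2648 of all 16762 tested genes. The steepest were Lox, with 0.38 ± 0.12 per day (adjusted p = 0.205, and 0.0209 with any 1 dense array left out), and Fbln5, with 0.30 ± 0.11 (adjusted p = 0.258). With any 1 dense array left out 497 of all tested genes rose in sparse cultures and 858 fell, against 5 and 8 with all arrays. With any 1 sparse array left out 0 members and 0 of all tested genes rose, and 0, 1 and 0 genes fell without sparse days 1, 2 and 3. Fbn1 had 0.25 ± 0.12 (adjusted p = 0.361) and Mfap5 0.23 ± 0.14 (adjusted p = 0.470). The remaining 6 members had slopes between −0.06 and 0.13.

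**Figure D4:**
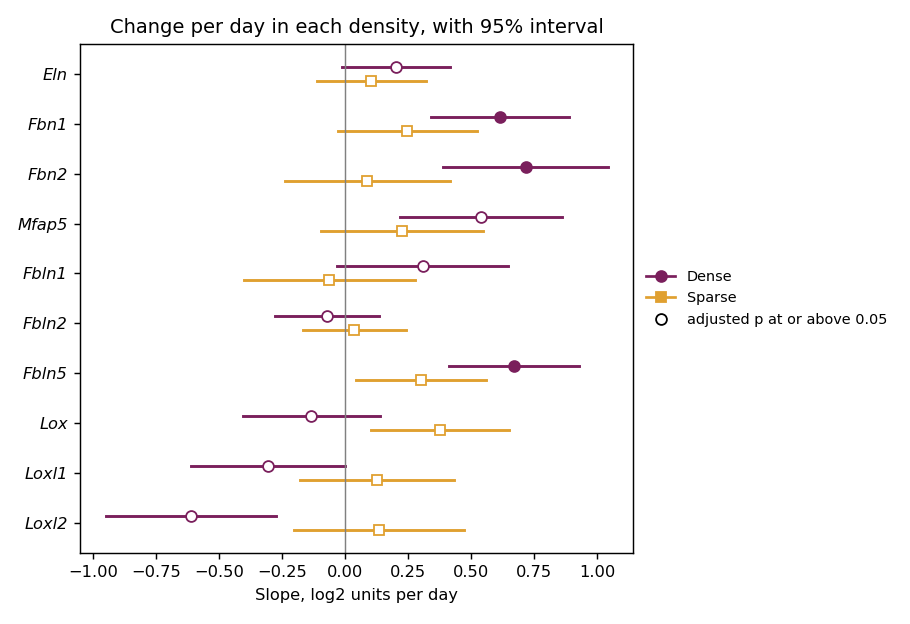
Change per day in log2 units (horizontal axis) in dense (purple circles) and sparse (yellow squares) cultures, with 95% intervals from limma. Filled symbols passed at an adjusted p under 0.05, and they are the dense slopes of Fbn1 (0.61), Fbn2 (0.72) and Fbln5 (0.67).

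Other genes that build elastic fibres and microfibrils moved partly with these. Of 22 tested, 8 were higher in dense cultures, 0 were lower and 14 did not pass, with a median of 0.33. That is 36.4% higher, against the 8.26% of all tested genes given above. Without the day 2 arrays none of the calls in the lists below passed. Emilin1, an elastin-binding glycoprotein at the fibre surface, had 9.19, 9.81 and 9.41 in dense and 7.56, 8.12 and 8.40 in sparse cultures, a difference of 1.45 ± 0.17 (adjusted p = 0.0130). Its relative Emilin2 had a difference of 0.98 (adjusted p = 0.0345, and 0.0682 without day 1). Mfap2, the other small microfibril glycoprotein beside Mfap5, was higher by 1.22 (adjusted p = 0.0269). Adamtsl3 and Adamtsl4, of a family of secreted proteins of which Adamtsl4 binds fibrillin-1, were higher by 1.07 each (adjusted p = 0.0153 and 0.0376). The protease Adamts6 was higher by 0.71 (adjusted p = 0.0289, and 0.0598 without day 1), and the latent TGF-beta binding protein Ltbp3 by 0.77 (adjusted p = 0.0331).

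Efemp1, which encodes fibulin-3, had the largest estimate of these, 2.03 ± 0.49, and did not pass (adjusted p = 0.0535, and 2.79 with adjusted p = 0.000249 without day 3). It had 7.24, 7.86 and 6.37 in dense cultures, against 4.02, 5.48 and 5.86 in sparse cultures, so that its densities were far apart on day 1 and close on day 3. Efemp2, which encodes fibulin-4 and is named here after its values were seen because it is required for lysyl oxidase to act on elastin in mice, was higher by 0.67 ± 0.13 (adjusted p = 0.0338). Other latent TGF-beta binding proteins did not pass, with 0.11 for Ltbp2, 0.07 for Ltbp4 and −0.07 for Ltbp1, which were also named after their values were seen.

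Crosslinking genes outside the members were higher for 4 of 19, lower for 0, and 15 did not pass (21.1% higher, median 0.36). All 3 lysyl hydroxylases, which modify collagen lysines before crosslinking, were among the 4. Plod2 had 9.99, 10.14 and 10.08 in dense and 8.82, 8.83 and 8.81 in sparse cultures, a difference of 1.25 ± 0.11 (adjusted p = 0.00763). Plod3 was higher by 0.66 (adjusted p = 0.0379, and 0.0820 without day 1) and Plod1 by 0.61 (adjusted p = 0.0417, 0.0544 without day 1 and 0.0660 without day 3). Pcolce, an enhancer of the proteinase that processes procollagen, was higher by 1.05 ± 0.13 (adjusted p = 0.0133). Its relative Pcolce2 had 6.63, 5.998 and 5.28 in dense and 6.64, 6.86 and 6.94 in sparse cultures. That difference of −0.85 did not pass (adjusted p = 0.117, and −1.27 with 0.0325 without day 1), and Pcolce2 fell in dense cultures by 0.68 per day (adjusted p = 0.0138).

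The transglutaminase Tgm2 had 0.89 (adjusted p = 0.0562, and 1.203 with 0.00264 without day 3). The copper transporter Atp7a, which loads copper onto secreted enzymes such as lysyl oxidase, had 0.59 (adjusted p = 0.0720, and 0.79 with 0.0337 without day 1). The sugar transporter Slc2a10 had 0.49 (adjusted p = 0.0786, and 0.65 with 0.0302 without day 3). The remaining lysyl oxidases, named after their values were seen, were Loxl3 with 0.18 ± 0.27 (adjusted p = 0.665) and Loxl4 with 0.06 ± 0.13 (adjusted p = 0.757).

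**Figure D5:**
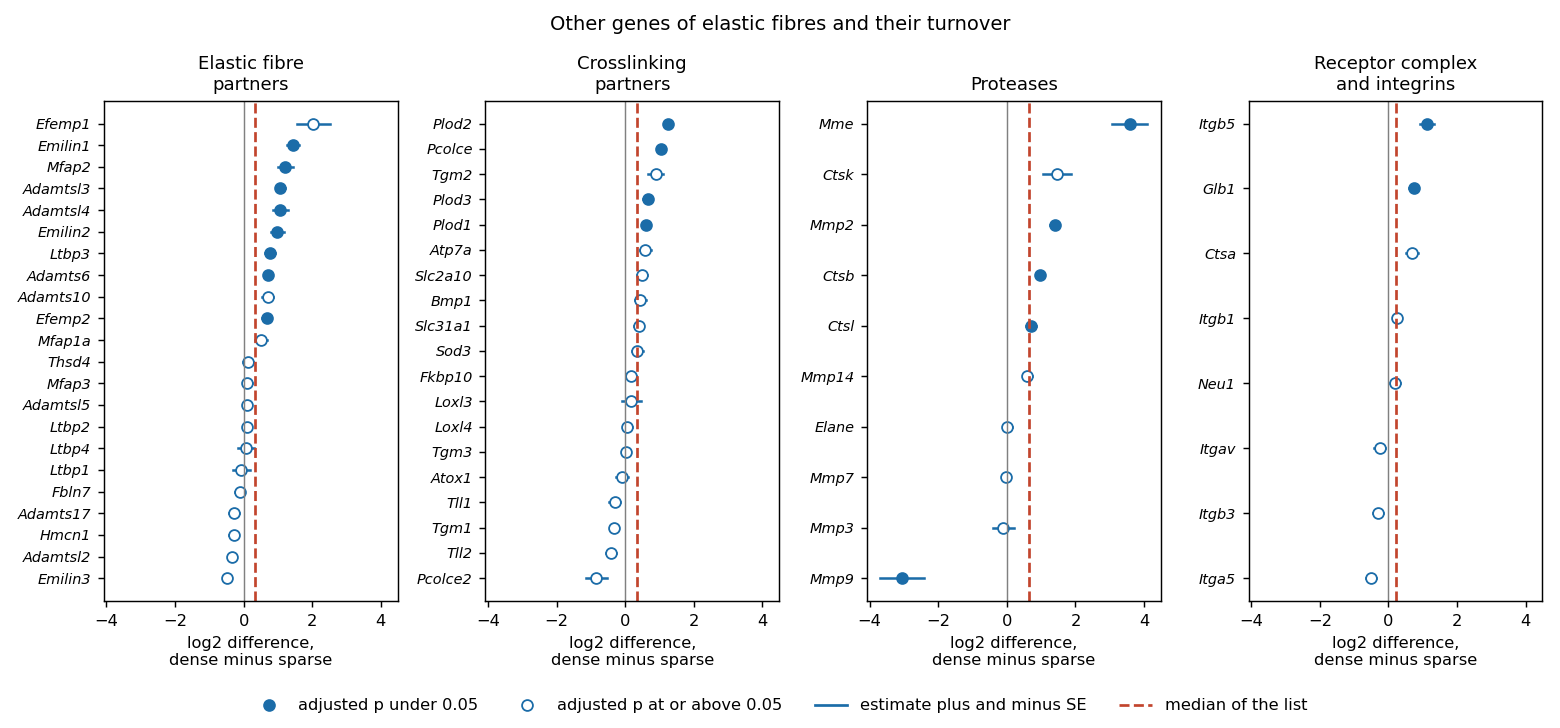
Log2 difference of dense minus sparse with its SE (horizontal axis) for the tested genes of 4 lists outside the members, and the list's median as a dashed line. Filled circles passed at an adjusted p under 0.05, and they lie to the right of 0 except Mmp9 at −3.05.

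Proteases that cleave elastin or microfibrils were higher for 4 of 10 tested, lower for 1, and 5 did not pass (40% higher, median 0.65). The membrane peptidase Mme was higher by 3.58 (adjusted p = 0.0189, 4.38 without day 1 and 2.91 without day 2), the gelatinase Mmp2 by 1.39 (adjusted p = 0.00763), the cathepsin Ctsb by 0.97 (adjusted p = 0.0136) and Ctsl by 0.70 (adjusted p = 0.0441, 0.0615 without day 1 and 0.0571 without day 3). The gelatinase Mmp9 was lower, with a difference of −3.05 ± 0.63 (adjusted p = 0.0390, −2.31 with 0.0673 without day 1 and −4.06 without day 3). Ctsk, a cathepsin with strong elastase and collagenase activity, had 6.64, 7.12 and 8.30 in dense and 6.27, 5.73 and 5.68 in sparse cultures. Its difference of 1.46 did not pass (adjusted p = 0.0694, 2.00 with 0.0239 without day 1 and 0.88 with 0.0399 without day 3), and it rose in dense cultures by 0.83 per day (adjusted p = 0.0188). Mmp14 had 0.60 (adjusted p = 0.0518, and 0.69 with 0.0311 without day 3) and Mmp3 −0.10 (adjusted p = 0.835).

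Of the elastin receptor complex and the integrins that bind fibrillins, fibulin-5 or elastin, 2 of 8 were higher, 0 lower, and 6 did not pass (25% higher, median 0.21). Itgb5, an integrin subunit that pairs with Itgav to bind fibulin-5, was higher by 1.13 ± 0.20 (adjusted p = 0.0294). Glb1, the locus of the elastin-binding splice form of beta-galactosidase, was higher by 0.73 (adjusted p = 0.0324, and 0.0539 without day 1). Its partners in that complex, Ctsa with 0.69 (adjusted p = 0.0589, and 0.0289 without day 1) and Neu1 with 0.19 (adjusted p = 0.395), did not pass. Neither did the integrin subunits Itga5 (−0.52), Itgb3 (−0.30), Itgav (−0.25) and Itgb1 (0.24).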

How the data were processed

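Affymetrix arrays of dense and sparse mouse mesenchymal cultures gave log2 values per probe set, deposited by the authors. RMA and Partek are named, without versions, in the submitters' processing notes, and for the array model the sources used here give nothing. A deposited table of the authors also holds, per the file headers, p-values and a signed fold of dense over sparse. It was used for gene symbols and to identify its test: recomputed, its p-value is that of an unpaired equal-variance comparison (largest gap 0.00216). A further 6 columns of per-sample values were not used.

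Density and day came from the labels. With several probe sets of a symbol (2 of 10 members) the brightest by its mean across all 6 arrays stood for the gene, and genes with a mean at or above the 25th percentile of named genes (3.32) were tested. Fits used lmFit and eBayes of limma 3.58.1 under R 4.3.3 (2-sided, Benjamini-Hochberg over 16762 genes, threshold 0.05): density plus day as a factor, and a slope per day within each density (each with 2 residual degrees of freedom). The steps were tested on simulated data with independent noise, which held no shared day effect and no scaling difference between densities. That test therefore cannot vouch for the calls made here. Precision is limited by the number of arrays. The day pairs arrays by the labels: deviations from the density means of same-day arrays correlated at 0.127, 0.0750 and 0.0674, and those of other pairs from −0.150 to 0.109. Members, lists and tests were chosen with earlier results of these data known. All members were named, with up to 8 genes of each of the 4 partner, protease and receptor lists by size of estimate (marker genes were named outside this rule) and the 3 genes most like Eln and Lox. Alternatives covered normalization, filter, probe sets, variance model, day block, test and left-out arrays. No set test was run.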

Additional observations from a re-analysis of the deposited data

How the results depend on the processing

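Density calls on the members were as reported with quantile normalization again, centring on the 75th percentile, no filter, the mean of probe sets, probe sets on their own and a mean-variance trend. With no replicate block (density without the day) the same number, 7, passed, from an adjusted p of 0.00906 for Fbln2 to 0.0231 for Fbln5, and that setting changed no member's call. With genes filtered at the median Fbln1 passed (adjusted p = 0.0469) and Eln was not tested. The unpaired equal-variance test called 1 member, Fbln2 (adjusted p = 0.0482), and 30 genes higher and 6 lower. Leaving out both arrays of a day gave 0 to 8 members higher, 0 to 1717 genes higher and 0 to 805 lower. As deposited, 74.0% of 1870 calls were higher, 57.0% with quantile normalization again (1085 higher, 819 lower) and 39.3% with 75th percentile centring (1205 higher, 1861 lower). The median of all tested genes was −0.05, −0.07 and −0.18 under these scalings. Leaving out single arrays gave 0 to 4 members rising and 0 to 2 falling in dense, 0 to 1 rising in sparse, and 0 to 1 and 0 to 3 with a positive or negative slope difference. Over all tested genes such fits gave 0 to 1132 rising and 0 to 1270 falling in dense, and 0 to 497 and 0 to 858 in sparse. A positive slope difference passed for 0 to 915 genes and a negative one for 0 to 825. With the mean of probe sets the Loxl2 difference was 0.91, 0.85 and 0.40 on days 1 to 3, and that of Fbn1 0.49, 0.87 and 1.10. List counts without each day were added after seeing the data. The causes of these changes were not tested.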
